A study of Mus musculus with 24 samples.

Results

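Axon guidance ligands and receptors were examined in DNA methylation profiles of the mouse dentate gyrus, the part of the hippocampus where new granule neurons are added in adult life. The set held 60 autosomal genes, namely 14 Eph receptors, 7 ephrins, 18 semaphorins, 8 plexins and neuropilins, 3 Slits, 3 Robo receptors and 7 netrins and netrin receptors. A CpG belonged to a gene if it lay inside the gene's span in GENCODE M21 (assembly GRCm38) or within 2 kb of it. In all, 3920 of the 694379 CpGs of the table were members, and each of the 60 genes had at least 1. Of these, 1761 lay within 1 kb of an annotated transcript start and are called promoter CpGs, and the other 2159 are called body CpGs, including those in the 2 kb flanks. No CpG belonged to more than 1 of the genes.

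Methylation was measured by reduced representation bisulfite sequencing (RRBS), which reads bisulfite-converted DNA of CpG-rich restriction fragments. There were 24 female C57BL/6JRj mice in 3 groups of 8, which were young STD mice (3 months old, standard cages), aged STD mice (17 months old, standard cages) and aged ENR mice (17 months old, with environmental enrichment in the last 3 months). The comparison of aged STD with young STD asked about aging, and that of aged ENR with aged STD asked whether a stimulus-rich enclosure with tunnels and toys affects methylation in old mice. Both use the same 8 aged STD mice, so their differences are given side by side and are not independent. Enriched mice of an experiment were kept together in an enclosure, so effects of that enclosure and of enrichment cannot be told apart. The tissue was a microdissected mixture of granule neurons, interneurons and glia, and a shift in cell types and a change within a cell type cannot be told apart in such DNA.

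Growing axons steer by cues that attract or repel them. Ephrins are membrane-bound ligands of the Eph receptor tyrosine kinases, semaphorins act through plexins and, for the secreted class 3 members, through neuropilins, Slit proteins repel axons through Robo receptors, and netrins attract through Dcc and repel through Unc5 receptors. In the adult hippocampus many of the same molecules act on dendritic spines, on synapses and on the placement of adult-born neurons. Methylation at a promoter rich in CpGs usually accompanies silencing, whereas the bodies of transcribed genes are commonly methylated.

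Coverage was sparse and uneven. A mouse had values at 1881 to 3460 of the 3920 member CpGs, a member CpG had a value in a median of 15 mice, and 57 had one in all 24 mice. Of the 60056 member values, 83.8% were exactly 0 or 100%. The number of reads behind a percentage is unknown beyond the minimum of 10, so differences in depth between values could not be weighed. To compare mice that cover different CpGs, a level per mouse was computed as the mean deviation of its covered CpGs from the usual value of each CpG, added to the usual mean of the gene or family. Such a coverage-adjusted level can fall below 0 or rise above 100%. Of the 2431 levels of single mice in the promoters and bodies tested, 169 were below 0 and 13 above 100%, and they reached -17.0% (Sema6c body, aged STD mouse 5) and 117% (Ephb3 body, aged STD mouse 8). One mouse stood apart. Aged STD mouse 5 had a plain mean of 15.8% over its covered member CpGs, whereas the other 23 mice ranged from 23.4 to 33.7%. A plain mean depends on which CpGs a mouse covers. As a coverage-adjusted level over all members, this mouse was at 5.51% for promoters (other mice 4.91 to 7.28%). For bodies it was at 39.1% (other mice 42.9 to 48.4%). Named differences are also given without it where that carried an unadjusted p across 0.05. When each mouse was left out in turn, CpGs left with under 3 mice in a group were dropped too, so such values can rest on fewer CpGs. Of the 28 differences of named regions, 23 moved by over 1.5 times without at least 1 mouse, and their ranges are given beside them. Where 3 values follow each other, they are in the order young STD, aged STD, aged ENR.

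Of the 60 genes, 52 had a promoter and 54 a body with enough data (at least 5 CpGs, and at least 3 mice per group with at least 3 of them covered), and 48 had both. The genes without a tested promoter were Sema4a, Sema3b, Sema3g, Efnb3, Efna2, Epha1, Epha3 and Epha10. Those without a tested body were Sema4a, Sema3b, Sema3c, Sema3d, Sema4b and Ephb6, so Sema3b and Sema4a had neither. Slit3, which encodes a secreted repellent, had the most CpGs, with 29 at its promoter and 171 in its body.

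Runs of CpG sites that were close together gave windows at which the letters and the methylation can be read side by side. In the sequences, all on the plus strand of GRCm38, capitals mark the CpG sites that had a value. The first pair was shown because it was almost fully methylated although CpG-rich, the next 3 because they were almost unmethylated, and the last pair because it lay in between.
Sema6d intron, chr2:124352923-124353053: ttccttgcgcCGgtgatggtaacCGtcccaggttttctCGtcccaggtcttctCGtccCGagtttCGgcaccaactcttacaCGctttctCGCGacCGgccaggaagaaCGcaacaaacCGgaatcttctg
Robo1 coding exon, chr16:72989664-72989796: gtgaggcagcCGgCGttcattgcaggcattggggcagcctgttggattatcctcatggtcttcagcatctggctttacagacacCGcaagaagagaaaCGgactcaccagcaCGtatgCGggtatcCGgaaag
Ntn1 coding exon, chr11:68385403-68385496: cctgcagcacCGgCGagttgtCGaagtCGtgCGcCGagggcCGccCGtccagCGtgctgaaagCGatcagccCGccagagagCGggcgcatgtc
Epha10 intron, chr4:124882445-124882580: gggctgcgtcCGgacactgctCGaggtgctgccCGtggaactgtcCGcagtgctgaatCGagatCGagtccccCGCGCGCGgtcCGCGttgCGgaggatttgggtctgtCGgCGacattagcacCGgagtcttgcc
Efna5 first intron, chr17:62880408-62880643: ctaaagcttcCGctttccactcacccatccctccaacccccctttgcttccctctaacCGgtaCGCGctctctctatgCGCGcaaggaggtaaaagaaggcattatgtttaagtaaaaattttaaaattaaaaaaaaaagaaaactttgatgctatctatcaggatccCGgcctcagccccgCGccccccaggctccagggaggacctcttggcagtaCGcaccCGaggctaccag
Epha4 coding exon, chr1:77506849-77507046: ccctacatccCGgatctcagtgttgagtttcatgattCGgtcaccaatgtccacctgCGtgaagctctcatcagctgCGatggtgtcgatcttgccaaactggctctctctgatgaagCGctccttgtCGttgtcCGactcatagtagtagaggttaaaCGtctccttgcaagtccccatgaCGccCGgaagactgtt
Ephb3 upstream of the start, chr16:21203833-21204072: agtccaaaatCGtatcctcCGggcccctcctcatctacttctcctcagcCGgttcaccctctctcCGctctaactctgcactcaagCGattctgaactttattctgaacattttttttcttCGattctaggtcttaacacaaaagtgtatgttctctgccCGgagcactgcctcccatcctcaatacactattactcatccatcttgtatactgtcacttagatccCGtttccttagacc

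The Sema6d run lay in an intron, 209983 bp from the nearest annotated start, and had 12 CpG sites in 111 bp. Its levels were 99.5% ± 1.11, 99.99% ± 0.0423 and 98.95% ± 2.04 (SD, n = 7, 6 and 7). No mouse was under 94.6%. Sema6d encodes a membrane-bound semaphorin that binds plexin A1. The Robo1 run lay in a coding exon of this Slit receptor, and the printed window holds 7 of its 8 sites, with levels of 94.5% ± 8.77, 98.9% ± 5.36 and 97.9% ± 6.06 (SD, n = 6, 5 and 5).

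In contrast, the run in a coding exon of Ntn1, which encodes netrin 1, was at 0 in all 6 young STD and all 3 aged STD mice with data, and at 0.881% ± 1.17 (SD) in 3 aged ENR mice. The Epha10 run lay in an intron 1613 bp from the start of the gene, which encodes an Eph receptor without kinase activity, and its levels were 0.693% ± 1.27, 0.368% ± 0.587 and 0.1901% ± 0.331 (SD, n = 8, 6 and 6). In the Efna5 run, 618 bp inside the nearest start of the gene for ephrin A5, levels were 3.29% ± 3.16, 2.51% ± 2.22 and 2.38% ± 1.90 (SD, n = 8, 8 and 8). Runs of CpGs therefore had low methylation in these 3 windows and nearly full methylation in Sema6d and Robo1.

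The Epha4 run was intermediate and varied widely between mice. Epha4 encodes a receptor for ephrins of both classes that acts on hippocampal spines. In this run, young STD mice spanned -0.480 to 60.1% around a median of 13.9%, 6 aged STD mice 16.2 to 68.7% (median 37.4%) and 7 aged ENR mice -0.480 to 46.0% (median 30.1%). The groups overlapped across most of this range. The window printed for Ephb3, which encodes a receptor for B-class ephrins, is part of a run of 17 sites upstream of its start, with levels of 43.7% ± 12.3, 37.2% ± 11.3 and 40.2% ± 7.09 (SD, n = 8, 8 and 8).

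These windows come from 100 runs of at least 8 CpG sites with gaps of at most 100 bp, 69 at promoters and 31 in bodies. In young STD mice, 67 of the 69 promoter runs were under 10%, and the exceptions were Ephb3 and a run in Sema5b next to an internal start (46.4% ± 33.9, n = 4). Of the 31 body runs, 24 were under 10%, 5 were between 10 and 50% (Epha4, Unc5b, Efna4, Efnb3 and Efna5) and 2 were above 90% (Sema6d and Robo1). The runs were defined after the data had been examined and were not tested.

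Most promoters in the set were unmethylated. In young STD mice 41 of 52 promoters were under 10%, 9 lay between 10 and 50%, and 2 were at 50% or more, and their median was 3.30%. Over all 12349 protein-coding promoters tested, the median was 2.495% and 78.8% were under 10%, as were 78.8% of the members. Among promoters, the lowest level in each family was 0.714% in Efna4, 0.697% in Epha7, 0.366% in Sema4b, -0.777% in Plxna4, 1.77% in Slit2, 4.59% in Robo2 and 1.22% in Ntn1. The highest was 6.69% ± 8.72 (SD, n = 8) in Efna1, 15.3% ± 2.81 (n = 8) in Epha2, 94.2% ± 6.66 (n = 7) in Sema6c, 69.8% ± 12.7 (n = 6) in Plxnb2, 5.98% ± 5.19 (n = 6) in Slit1, 41.0% ± 6.16 (n = 8) in Robo3 and 16.4% ± 10.8 (n = 7) in Unc5a. The Sema6c, Plxnb2 and Robo3 promoters rest on 6, 7 and 14 CpGs. With 1 mouse left out, the Unc5a level ran from 10.2 (without young STD mouse 7) to 36.6% (without aged STD mouse 5) and the Efna1 level from 3.29 (without aged STD mouse 6) to 9.55% (without young STD mouse 7). Among the lowest levels, Efna4 ran from -0.216 to 1.19%, Plxna4 from -0.866 to 0.370%, Sema4b from 0.347 to 0.845% and Ntn1 from 0.380 to 2.05%, so the order of such levels near 0 was not settled.

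**Figure D1:**
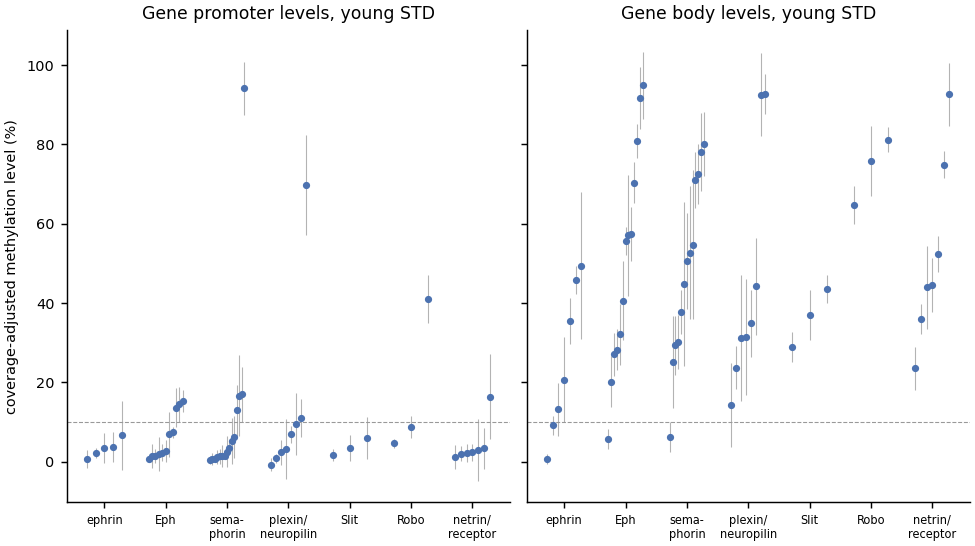
Coverage-adjusted methylation level (%) of each gene in young STD mice, promoters on the left and bodies on the right, grouped by family; each point is the mean of a gene, the bars are the SD over mice and the dashed line marks 10%. Of 52 promoters 41 lie under the line, while the 54 bodies spread from 0.726 to 94.9%.

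Promoter CpGs over 90% methylated were found mostly at internal transcript starts. In these counts a start within 1 kb of the outermost 5′ start of its gene was taken as a 5′ start, and one farther in as internal. Of the 376 promoter CpGs nearest to an internal start, 10.1% were over 90% methylated in young STD mice, against 0.217% of the 1385 at 5′ starts. The shares under 10% were 73.7 and 90.8%. Promoter CpGs nearest to such a 5′ start averaged 3.07% in young STD mice (1385 CpGs of 51 genes). Those nearest to an internal start averaged 16.2% (376 CpGs of 28 genes). For single genes, CpGs are grouped by the exact start nearest to them. In Epha2, 37 CpGs at the 5′ start averaged 1.93% and 6 CpGs at a start 7654 bp further in averaged 98.6%. The Sema6c level rested wholly on a start 7755 bp inside the gene, with 93.9%, 96.3% and 94.9% in the 3 groups (young STD, aged STD, aged ENR). In Plxnb2, a receptor for class 4 semaphorins, 5 of the 7 CpGs lay at starts 24216 and 19241 bp inside the gene and averaged 91.2 and 96.3%.

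Robo1 and Sema3a showed the opposite order. In Robo1 the 3 CpGs at the 5′ start averaged 72.3% in young STD mice, and the 31 CpGs at a start 354898 bp further in averaged 0.628%. In Sema3a, which encodes a secreted repellent read by neuropilin 1 and plexin A receptors, 5 CpGs near the 5′ start averaged 60.0%, and 10 CpGs at a start 274163 bp further in averaged 3.27%. Thus in these 2 genes the CpG-rich unmethylated start was an internal one.

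Gene bodies were more methylated and more varied. Their median in young STD mice was 44.1%, with 4 of 54 under 10% and 22 at 50% or more, whereas the 9370 bodies of all protein-coding genes had a median of 63.8%, with 61.8% of them at 50% or more, against 40.7% of the members. Among receptors, Epha1 (94.9%), Unc5c (92.6%), Plxna2 (92.6%), Plxnb1 (92.5%) and Epha2 (91.7%) were the highest, and Epha10 (5.72%) was low. Among ligands, the lowest bodies were Efna1 (0.726%), Sema4c (6.23%) and Efna3 (9.13%). The 7 body CpGs of Efna1 all lay in the 2 kb flank upstream of the gene, so its body level does not describe the gene itself. Slit3 stood at 43.6% ± 3.61, and the attractive netrin receptor Dcc at 74.9% ± 3.41 (SD, n = 8 each). Which CpGs RRBS covers differs between genes, so these levels describe the CpGs measured and not a whole gene.

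Distance from a start and local CpG density went with the level. Member CpGs averaged 5.01% within 100 bp of the nearest start, 2.67% at 100 to 250 bp, 4.14% at 250 to 500 bp, 10.1% at 500 to 1000 bp, 42.4% at 2 to 5 kb, 48.1% at 5 to 20 kb and 59.4% beyond 20 kb in young STD mice. In the zone from 1 to 2 kb they averaged 10.4% (436 CpGs), where CpGs of all protein-coding genes averaged 30.2% (39552 CpGs). Counted by gene, with at least 5 CpGs in that zone, the median was 2.74% over 24 members and 16.5% over 2584 genes, and 79.2% against 41.5% of them were under 10%. The exceptions among members were Sema4d (55.2%), Ephb3 (52.1%), Robo3 (42.8%), Sema5b (34.0%) and Ephb2 (10.1%). The members were not drawn at random and this difference was not tested. Body CpGs with 1 to 4 CpG sites within 100 bp averaged 58.9%, and those with 15 or more averaged 15.6%.

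**Figure D2:**
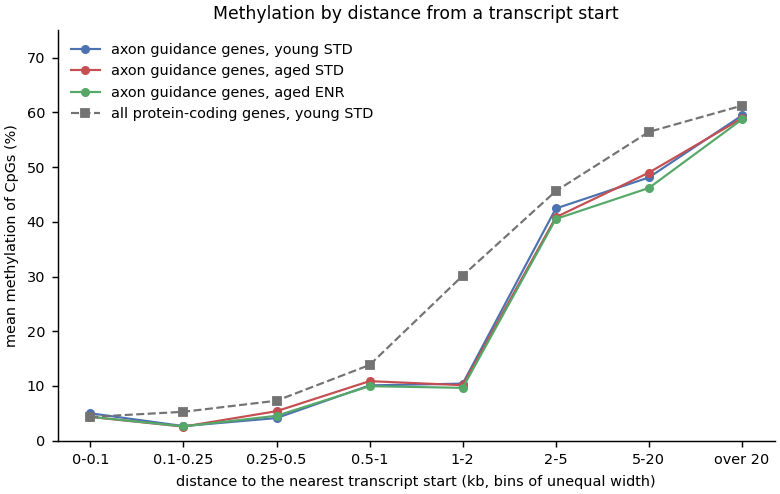
Mean methylation (%) of CpGs by distance from the nearest annotated transcript start (kb, bins of unequal width), for the axon guidance genes in the 3 groups and for all protein-coding genes in young STD mice. The lines of the 3 groups nearly coincide, and at 1 to 2 kb the member CpGs average 10.4% in young STD mice where all genes average 30.2%.

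Families differed in body level far more than groups of mice did. In young STD mice the Robo bodies averaged 79.0% ± 3.05, followed by semaphorins with 49.6% ± 2.85, netrins and their receptors with 47.9% ± 2.05, Eph receptors with 41.5% ± 2.28, Slits with 38.5% ± 2.48, ephrins with 35.9% ± 2.36, and plexins and neuropilins with 34.5% ± 4.67 (SD, n = 8 each). Below the Robo receptors, each family overlapped with its neighbour in this order. The Robo mice, from 75.1 to 84.6%, lay above every mouse of the other families, whose highest was 55.1%. A family level pools CpGs, so genes with many CpGs weigh more. Robo1 held 127 of the 164 Robo body CpGs, and Slit3 held 171 of the 311 Slit body CpGs. The SD is over mice and does not show the spread between genes of a family.

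No family differed between groups by more than a few points. For the promoters of plexins and neuropilins, young STD mice spanned 6.14 to 8.53% around a median of 6.97%, aged STD mice 6.79 to 9.76% (median 8.27%) and aged ENR mice 5.16 to 8.36% (median 7.19%). The aging difference was 1.09 points and the ENR difference -1.14 points, with overlapping mice. With CpGs that had at least 5 mice per group the aging difference was 0.0723 points, and with a plain mean the ENR difference turned to 0.178 points. For their bodies, the aging difference was -2.62 points, with an SD of 4.67 points among young STD mice. Slit promoters had differences of the other sign, -0.866 and 1.18 points. With at least 5 mice per group their aging difference turned to 0.198 points, and with a 2 kb promoter window their ENR difference was 0.153 points. Over all members, promoters stood at 5.87% ± 0.466, 6.23% ± 0.549 and 5.74% ± 0.473, and bodies at 44.9% ± 1.59, 44.3% ± 2.41 and 43.9% ± 0.693 (SD, young STD, aged STD and aged ENR). Without aged STD mouse 5, the aging difference of the bodies moved from -0.601 to 0.142 points and the ENR difference from -0.440 to -1.18 points. With 1 mouse left out, 14 of the 32 family differences changed sign at least once, and all 32 moved by over 1.5 times. Family levels were not tested.

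**Figure D3:**
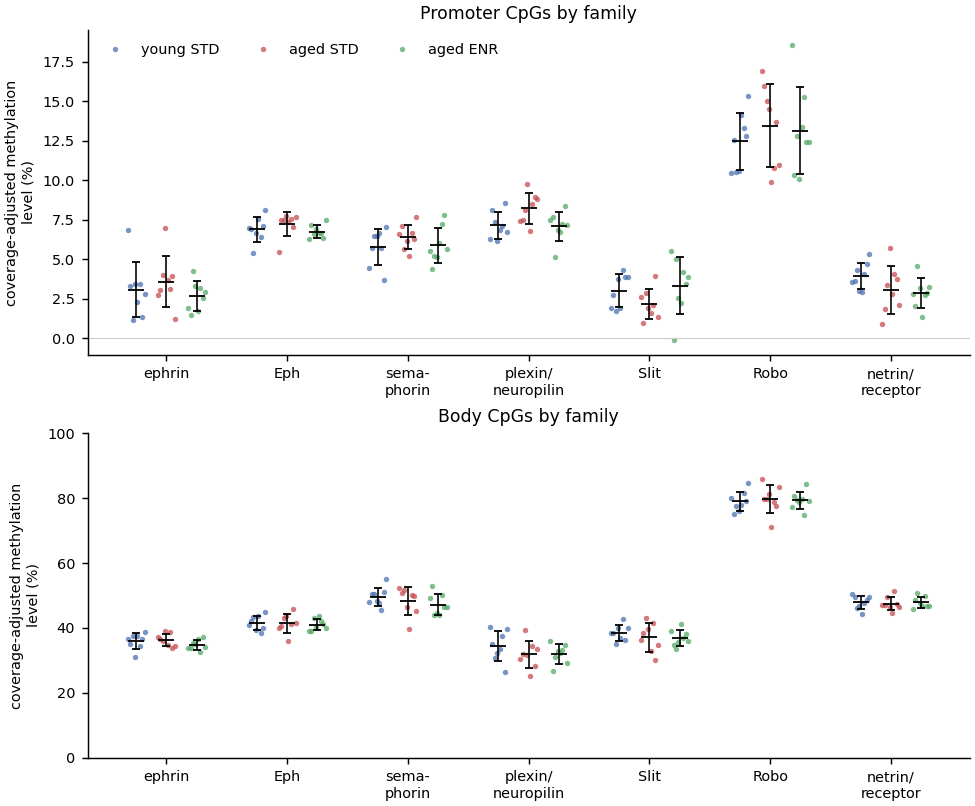
Coverage-adjusted methylation level (%) of each family for promoter CpGs (top) and body CpGs (bottom); each point is a mouse, colours mark young STD, aged STD and aged ENR, and black bars give the mean and SD of 8 mice. The groups overlap in every family, and the Robo bodies lie above those of the other families.

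No member passed the test in any comparison. A limma model of the level per mouse was fitted to all 21719 promoters and bodies of protein-coding genes, and p-values were adjusted over all of them by the Benjamini-Hochberg method. For aging, 0 of 106 member regions had an adjusted p under 0.05, against 1 region of all (0.0046%). At an unadjusted p under 0.05, aged STD exceeded young STD in 2 regions and lay below it in 2 (1.89% each), where 2.28% of all regions were higher and 3.28% lower. For ENR, 0 of 106 passed, against 2 of all (0.00921%). Unadjusted, aged ENR exceeded aged STD in 0 regions and lay below it in 2 (1.89%), where 1.82% of all regions were higher and 2.9% lower. For aged ENR against young STD, 0 of 106 passed, against 2 of all (0.00921%). Unadjusted, 1 was higher and 3 lower (0.943 and 2.83%), where 1.62% of all regions were higher and 3.8% lower. The shares of members were thus at or below those of all regions in each direction. The median difference was 0.0937 points for aging and -0.653 points for ENR over the 52 promoters (all promoters 0 and -0.168), and -0.272 and -0.418 points over the 54 bodies (all bodies -0.527 and -0.358). The median SE of a difference was 1.66 points for a member promoter and 3.61 points for a body, so differences of a few points could not be told from 0 in a single gene. Each of the 10 differences with an unadjusted p under 0.05 (4 for aging, 2 for ENR and 4 for aged ENR against young STD) had a p of 0.05 or more without at least 1 mouse.

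**Figure D4:**
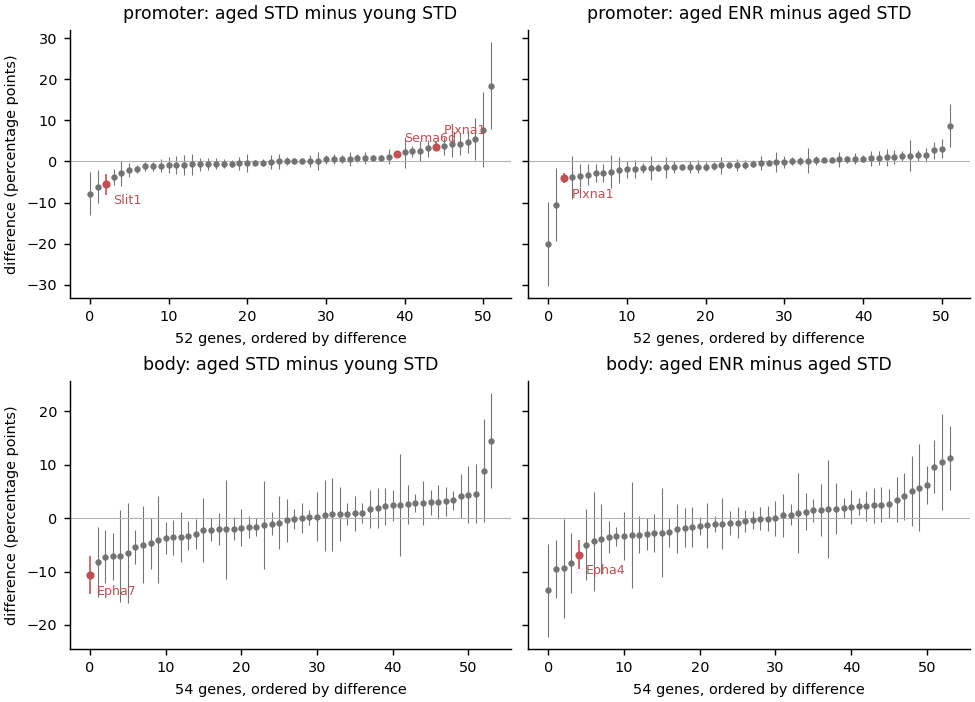
Difference in level (percentage points, limma estimate with SE) of each member promoter (top, 52 genes) and body (bottom, 54 genes), for aged STD minus young STD (left) and aged ENR minus aged STD (right), ordered by size. Red marks the regions with an unadjusted p under 0.05, none of which passed adjustment over 21719 regions.

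Among ephrins, no region had an unadjusted p under 0.05. Across the Efna1 promoter, of an A-class ephrin, young STD mice spanned -4.08 to 24.9% around a median of 4.85%, aged STD mice 3.34 to 20.3% (median 10.8%) and aged ENR mice 4.43 to 15.3% (median 7.26%). The groups overlapped. Its aging difference was 4.19 ± 3.18 points (SE, limma, unadjusted p = 0.201), and it ran from -0.391 (without aged STD mouse 4) to 6.08 points (without young STD mouse 1). The Efna3 promoter had the smallest p for ENR among ephrin promoters, with levels of 3.68% ± 3.76, 3.02% ± 3.19 and 1.77% ± 2.72 (SD, n = 8 each) and a difference of -1.26 ± 1.62 points (limma, unadjusted p = 0.447), which ran from -1.94 (without aged ENR mouse 1) to 0.462 points (without aged STD mouse 5). In the body of Efnb3, which encodes ephrin B3, young STD mice spanned 3.76 to 22.9% around a median of 13.6%, 6 aged STD mice 1.95 to 21.1% (median 3.19%) and aged ENR mice -2.09 to 30.4% (median 0.564%). Here too the groups overlapped, and the aging difference was -7.21 ± 4.94 points (limma, unadjusted p = 0.1603; -8.69 to -3.497 points with 1 mouse left out). The Efna1 body, whose CpGs all lay in the upstream flank, had the smallest p for ENR among ephrin bodies. It was at 0.726% ± 1.21, 0.582% ± 1.203 and 2.77% ± 4.82 (SD, n = 5, 7 and 8). Its ENR difference was 2.19 ± 1.67 points (limma, unadjusted p = 0.205), which ran from 0.938 to 2.68 points with 1 mouse left out.

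Epha7, a receptor of A-class ephrins that limits dendrites and spines, had the smallest p of the Eph bodies for aging. Over its 15 body CpGs, young STD mice spanned 18.1 to 34.5% around a median of 29.3%, aged STD mice 7.27 to 29.0% (median 19.0%) and aged ENR mice 17.4 to 44.9% (median 21.1%). Most aged STD mice lay below most young STD mice, with overlap. The aging difference was -10.6 ± 3.59 points (SE, limma, unadjusted p = 0.00724, adjusted p = 0.780), and the ENR difference was 6.23 ± 3.59 points (limma, adjusted p = 0.954). Without aged STD mouse 5 these were -12.2 and 7.85 points, the latter with an unadjusted p of 0.0377 by limma. With any 1 mouse left out, the aging difference ran from -12.2 (without aged STD mouse 5) to -3.31 points (without young STD mouse 4) and the ENR difference from 2.89 (without young STD mouse 4) to 7.83 points (without aged STD mouse 5). Aged ENR mouse 2, at 44.9%, stood apart from its group, and without it the ENR difference was 3.07 points (limma, unadjusted p = 0.307).

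Epha4 had the smallest p of the Eph bodies for ENR. Over its 96 body CpGs, young STD mice spanned 10.3 to 28.9% around a median of 20.3%, aged STD mice 12.8 to 28.9% (median 20.1%) and aged ENR mice 7.49 to 19.0% (median 14.1%). Of the 8 aged ENR mice, 3 lay below all aged STD mice, 2 of these also lay below all young STD mice, and the other 5 lay within the ranges of both groups. The ENR difference was -6.81 ± 2.80 points (SE, limma, unadjusted p = 0.0235, adjusted p = 0.954), aged ENR differed from young STD by -6.82 ± 2.80 points (limma, unadjusted p = 0.0231, adjusted p = 0.896), and the aging difference was -0.0174 ± 2.80 points (-2.50 to 1.15 points with 1 mouse left out). The promoter of Epha5, a further A-class receptor, had levels of 2.31% ± 2.22, 1.78% ± 1.64 and 0.281% ± 0.978 (SD, n = 8 each), with an ENR difference of -1.50 ± 0.903 points (limma, unadjusted p = 0.111). There aged ENR differed from young STD by -2.03 ± 0.903 points (limma, unadjusted p = 0.0348, adjusted p = 0.896). The Ephb4 promoter had the smallest p of the Eph promoters for aging, with levels of 1.38% ± 3.04, 6.15% ± 8.23 and 2.66% ± 3.38 (SD, n = 8, 7 and 7) and a difference of 4.77 ± 2.70 points (limma, unadjusted p = 0.0918), which ran from 1.79 (without aged ENR mouse 2) to 6.07 points (without aged STD mouse 1).

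Among semaphorins, Sema6d had 93 promoter CpGs, over which young STD mice spanned 0.844 to 2.92% around a median of 1.14%, aged STD mice 0.944 to 5.50% (median 3.00%) and aged ENR mice 0.253 to 3.84% (median 1.85%). Levels were low in every mouse, and most aged STD mice lay above most young STD mice. The aging difference was 1.71 ± 0.665 points (SE, limma, unadjusted p = 0.0174, adjusted p = 0.844) and the ENR difference -1.32 ± 0.665 points (limma, adjusted p = 0.954). The 21 CpGs nearest to a start 520137 bp inside the gene had means of 2.68, 8.71 and 4.39% in the 3 groups, and the 53 CpGs at the 5′ start had 0.757, 1.72 and 1.57%. The Sema6d body had the smallest p of the semaphorin bodies for aging, at 71.0% ± 6.99, 65.6% ± 8.45 and 67.8% ± 2.82 (SD, n = 8 each), with a difference of -5.34 ± 3.19 points (limma, unadjusted p = 0.108), which ran from -10.3 (without aged STD mouse 4) to -2.31 points (without aged STD mouse 1). The body of Sema3f, a secreted ligand of neuropilin 2, stood at 50.6% ± 12.2, 65.0% ± 14.8 and 51.5% ± 20.6 (SD, n = 7, 6 and 8), with an ENR difference of -13.5 ± 8.65 points (limma, unadjusted p = 0.134), which ran from -26.6 (without aged STD mouse 6) to -3.13 points (without aged STD mouse 2).

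The largest promoter difference rested on few mice. Sema4d encodes a membrane-bound ligand of plexin B1. At its promoter, 7 young STD mice spanned -3.52 to 14.03% around a median of 4.19%, aged STD mice 1.14 to 96.5% (median 5.93%) and aged ENR mice -12.9 to 22.3% (median 5.19%). The medians were close, and the aged STD mean of 23.7% ± 33.7 (SD, n = 8) was set by 3 mice at 22.2, 50.2 and 96.5%. The aging difference was 18.5 ± 10.6 points and the ENR difference -20.04 ± 10.2 points (SE, limma, unadjusted p = 0.0948 and 0.0625). Without aged STD mouse 5 they were 21.7 and -23.3 points (limma, unadjusted p = 0.0579 and 0.0373). With any 1 mouse left out, the aging difference ran from 7.39 (without aged STD mouse 8) to 21.9 points (without aged STD mouse 5) and the ENR difference from -24.2 (without aged STD mouse 5) to -9.61 points (without aged STD mouse 8). The body of Sema5a, a membrane-bound semaphorin, stood at 37.7% ± 5.53, 34.4% ± 7.31 and 31.8% ± 2.83 (SD, n = 8 each), and aged ENR differed from young STD by -5.94 ± 2.71 points (limma, unadjusted p = 0.0390, adjusted p = 0.896). Sema4d and Sema5a were named after their values had been seen.

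Of the semaphorin receptors, Plxna1 had the smallest p of all member regions in both comparisons. It encodes plexin A1, which pairs with neuropilins to read class 3 semaphorins and also binds Sema6d. Over its 42 promoter CpGs, young STD mice spanned 4.24 to 10.04% around a median of 6.08%, aged STD mice 7.13 to 14.4% (median 10.2%) and aged ENR mice 4.04 to 9.77% (median 6.28%). Aged STD mice were the higher group, with overlap. Aging gave a difference of 3.64 ± 1.18 points (SE, limma, unadjusted p = 0.00515, adjusted p = 0.752) and ENR one of -4.00 ± 1.18 points (limma, unadjusted p = 0.00253, adjusted p = 0.954). With 1 mouse left out, the aging difference ran from 0.0377 (without aged STD mouse 2) to 6.54 points (without young STD mouse 2), and the ENR difference from -6.27 (without young STD mouse 2) to -1.01 points (without aged STD mouse 2). Aged ENR and young STD mice differed by -0.352 ± 1.18 points (-2.17 to 0.270 points with 1 mouse left out). Both main differences share the aged STD mice, so their opposite signs are not a separate observation. The 39 CpGs at the 5′ start averaged 0.950, 3.76 and 1.63% in the 3 groups, and 3 CpGs near a start 29550 bp inside the gene averaged 77.8, 100 and 77.0%. The Plxna1 body was at 31.1% ± 15.8, 29.0% ± 8.50 and 40.3% ± 11.6 (SD, n = 8 each), an ENR difference of 11.3 ± 5.99 points (limma, unadjusted p = 0.0711; 7.31 to 18.3 points with 1 mouse left out). The body of Plxna4, a receptor of the same class, was at 34.9% ± 8.47, 31.2% ± 4.89 and 30.4% ± 3.56 (SD, n = 8 each), an aging difference of -3.69 ± 2.94 points (limma, unadjusted p = 0.221; -5.14 to -1.23 points with 1 mouse left out).

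Among Slits and Robo receptors, the Slit1 promoter was covered in fewer mice. There, 6 young STD mice spanned -1.09 to 11.8% around a median of 6.88%, 4 aged STD mice -0.695 to 1.54% (median 0.368%) and aged ENR mice -0.661 to 9.46% (median 2.93%). The aged STD mice were all near 0, where some mice of the other groups lay too. Aging gave a difference of -5.58 ± 2.497 points (SE, limma, unadjusted p = 0.0396, adjusted p = 0.882), and without aged STD mouse 5 its unadjusted p was 0.0505. Its ENR difference was 3.13 ± 2.37 points (1.09 to 4.34 points with 1 mouse left out). In the Slit3 body, with the most CpGs, young STD mice spanned 38.6 to 49.6% around a median of 42.5%, aged STD mice 31.8 to 49.5% (median 42.1%) and aged ENR mice 37.8 to 47.3% (median 43.0%). These groups overlapped almost fully, with an aging difference of -1.94 ± 2.11 points (-4.05 to -0.896 points with 1 mouse left out) and an ENR difference of 1.46 ± 2.11 points (-0.405 to 3.34 points with 1 mouse left out). The Slit2 body stood at 37.1% ± 6.298, 40.0% ± 2.81 and 39.1% ± 4.31 (SD, n = 8 each), an aging difference of 2.97 ± 2.31 points (1.56 to 4.90 points with 1 mouse left out). With a plain mean of covered CpGs this difference turned to -4.21 points. The Slit1 body stood at 28.9% ± 3.75, 26.8% ± 8.02 and 23.8% ± 5.79 (SD, n = 8 each), an ENR difference of -3.04 ± 2.99 points (-4.54 to -0.475 points with 1 mouse left out). With CpGs that had at least 5 mice per group this difference turned to 2.95 points. Among the receptors, the Robo1 body was at 81.2% ± 3.11, 83.9% ± 4.32 and 82.5% ± 2.35 (SD, n = 8 each), with an aging difference of 2.77 ± 1.67 points (limma, unadjusted p = 0.111; 1.66 to 3.504 points with 1 mouse left out). Without aged STD mouse 5, at the same CpGs, it was 3.51 points (limma, unadjusted p = 0.0459). The Robo2 body was at 75.8% ± 8.72, 68.6% ± 11.9 and 72.7% ± 5.39 (SD, n = 8 each), with an ENR difference of 4.10 ± 4.41 points that ran from 0.588 (without aged STD mouse 5) to 5.97 points (without aged STD mouse 8). Robo3, a receptor that lets commissural axons cross the midline, had promoter levels of 41.0% ± 6.16, 46.5% ± 12.9 and 42.6% ± 11.6 (SD, n = 8 each). Its aging difference was 5.47 ± 5.16 points (3.72 to 8.98 points with 1 mouse left out) and its ENR difference -3.90 ± 5.16 points (-7.27 to -2.12 points with 1 mouse left out), both farthest from 0 without aged STD mouse 5.

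Among netrins and their receptors, the Ntn1 promoter stood at 1.22% ± 2.95, 1.75% ± 2.63 and 0.0964% ± 0.733 (SD, n = 8, 8 and 7). Its ENR difference of -1.65 ± 1.25 points had the smallest p of the promoters in its family (limma, unadjusted p = 0.202; -2.24 to -0.879 points with 1 mouse left out). The promoter of Unc5d, a repulsive netrin receptor, was at 2.39% ± 2.17, 0.599% ± 1.33 and 1.29% ± 1.45 (SD, n = 8 each), an aging difference of -1.79 ± 0.905 points (limma, unadjusted p = 0.0603; -2.17 to -0.901 points with 1 mouse left out). Within the Unc5d body, young STD mice spanned 46.1 to 57.4% around a median of 51.3%, aged STD mice 47.9 to 64.1% (median 56.6%) and aged ENR mice 51.0 to 69.4% (median 56.8%). The groups overlapped. Aged ENR differed from young STD by 5.90 ± 2.65 points (SE, limma, unadjusted p = 0.0364, adjusted p = 0.896), and aging and ENR gave 3.15 ± 2.65 points (1.19 to 4.23 points with 1 mouse left out) and 2.75 ± 2.65 points (1.19 to 4.38 points with 1 mouse left out). The Dcc body was at 74.9% ± 3.41, 73.2% ± 2.45 and 72.9% ± 3.94 (SD, n = 8 each).

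**Figure D5:**
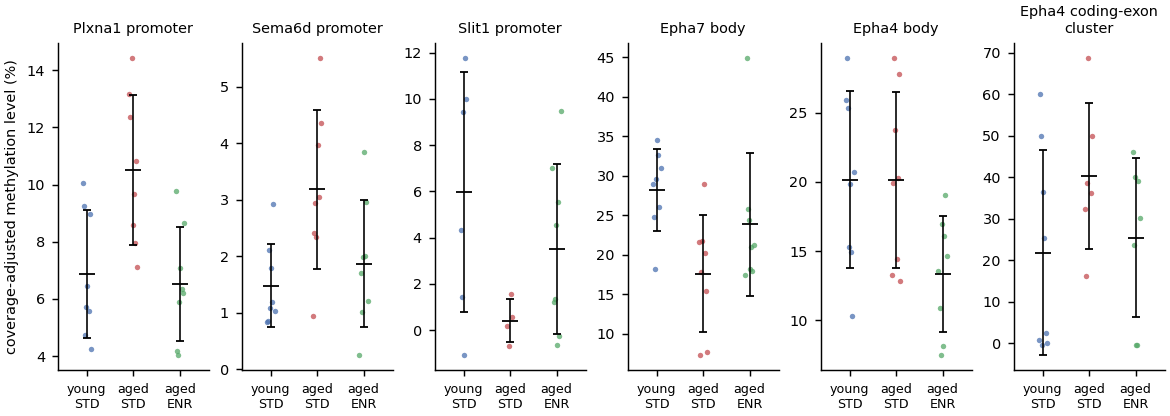
Coverage-adjusted level (%) per mouse (points) with mean and SD (black) in the 3 groups, for the member regions with an unadjusted p under 0.05 for aging or ENR and for the Epha4 coding-exon run; the vertical axes differ and need not start at 0. The groups overlap in each panel.

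No single member CpG was called either. A CpG was called by limma where its adjusted p was below 0.05 and the group means lay more than 25 points apart. For aging, 0 of 3920 member CpGs were, against 0.00475% of all CpGs, and 91 (2.32%) had an unadjusted p under 0.05, against 2.23%. For ENR, 0 passed, against 0.00432%, and 66 (1.68%) had an unadjusted p under 0.05, against 1.9%. For aged ENR against young STD, 0 passed, against 0.00504%, and 74 (1.89%) had an unadjusted p under 0.05, against 2.18%.

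By size alone, 188 member CpGs were over 25 points higher (4.8%) and 168 over 25 points lower (4.29%) in aged STD than in young STD mice, where 4.15 and 5.01% of all CpGs were. For ENR, 131 were higher (3.34%) and 203 lower (5.18%), where 3.82 and 4.51% of all CpGs were. Promoter CpGs passed this size in 2.67% and body CpGs in 14.3% of cases for aging, and in 2.67 and 13.3% for ENR. Over all protein-coding genes these shares were 3.44 and 13.1% for aging and 2.96 and 12.04% for ENR. For aging, the share in bodies ran from 12.2% in Robo genes to 16.7% in Slit genes. Because 25 points is a size without a test, a CpG with 3 mice in a group can pass it through 1 mouse.

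The member CpGs with the smallest p and at least 5 mice per group were at Sema6b, Nrp1, Epha5 and Epha4. At Sema6b, chr17:56142151 on the plus strand, at -1808 bp from the start, 6 of 7 young STD mice were at 0 and 1 at 2.38%, the 5 aged STD mice were at 24.1, 23.5, 30.8, 0 and 0%, and all 7 aged ENR mice were at 0. The higher values came from 3 aged STD mice, mouse 5 among them. The differences were 15.3 ± 4.24 points for aging and -15.7 ± 4.24 points for ENR (SE, limma, unadjusted p = 0.00225 and 0.00189, adjusted p = 1 for both).

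At Nrp1, which encodes neuropilin 1, an intronic CpG at chr8:128450725 (minus strand) was at 49.5, 5, 100, 35.2 and 3.03% in 5 young STD mice, at 0 in all 7 aged STD mice, and at 0 in 6 and 2.04% in 1 of 7 aged ENR mice. The young mice spread over the whole scale, while no older mouse exceeded 2.04%. The aging difference was -38.5 ± 11.5 points (SE, limma, unadjusted p = 0.00394, adjusted p = 1). At Epha5, an intronic CpG at chr5:84183383 (plus strand) was at 100% in all 7 young STD and all 6 aged ENR mice, and at 84.0, 67.1, 100, 72.3 and 100% in 5 aged STD mice. Its aging difference was -15.3 ± 4.57 points (unadjusted p = 0.00421, adjusted p = 1).

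At Epha4, a coding-exon CpG at chr1:77506985 (minus strand), inside the window printed above, was at 52.8, 100, 46.2, 80 and 100% in 5 aged STD mice. The 7 young STD mice were at 35.3, 100, 0, 32.7, 42.6, 4.76 and 0%, and the 6 aged ENR mice at 58.7, 3.85, 0, 0, 1.92 and 9.38%. Aged STD mice were high and 5 of 6 aged ENR mice low, with 1 aged ENR mouse inside the range of aged STD mice. The ENR difference was -63.5 ± 17.5 points (SE, limma, unadjusted p = 0.00237, adjusted p = 1). For the whole run around it the group means were 40.3% ± 17.7 (n = 6) and 25.4% ± 19.1 (n = 7), with overlapping mice. CpGs of such a run can come from the same reads and are not independent.

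Of 57 other genes of the pathway, which are further ligands, receptors and signalling partners, 50 promoters and 44 bodies were tested and 0 passed in any comparison by limma. Of these 94 regions, 4 had an unadjusted p under 0.05 and were higher for aging (4.26%, 2 promoters and 2 bodies) and 0 lower, where 2.28 and 3.28% of all regions were. For ENR 2 promoters were higher (2.13%) and 0 regions lower, where 1.82 and 2.9% of all were, and for aged ENR against young STD 3 were higher (3.19%) and 4 lower (4.26%), where 1.62 and 3.8% of all were. Their promoters had a median of 2.55% and their bodies of 57.7% in young STD mice. Methylation alone cannot name the cells of a tissue. In young STD mice the promoters of the granule neuron factor Prox1 (1.12%) and of the neuronal genes Rbfox3 (2.40%) and Snap25 (4.01%) were low, those of the oligodendrocyte gene Mbp (11.3%) and the astrocyte gene Aqp4 (39.2%) were higher, and that of the microglial gene Aif1 was at 85.9%. None of the 15 marker promoters and bodies tested had an adjusted p under 0.05 by limma. They include the body of Myh6, a gene of another organ, with differences of -5.95 points for aging and 3.74 points for ENR. Their aging differences were negative in 11 and positive in 4 and ran from -13.8 (Aqp4 promoter) to 1.76 points (Mog body), and their ENR differences were negative in 6 and positive in 9 and ran from -11.9 (Aif1 promoter) to 16.3 points (Gfap body). Neuronal, astrocyte and oligodendrocyte regions each had aging differences of both signs, and the microglial Aif1 promoter (-1.13 points) and Cx3cr1 body (-1.18 points) were negative. The positive astrocyte and oligodendrocyte values, 0.720 ± 11.6 points (Gfap body) and 1.76 ± 4.23 points (Mog body, SE), could not be told from 0. Unadjusted, 2 of the 15 had a p under 0.05 for aging (the Mbp and Neurod1 bodies, both lower in aged STD mice), 0 for ENR, and 1 for aged ENR against young STD (the Aqp4 promoter, lower in aged ENR mice). Whether cell types had a part in any difference of the members was not tested.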

How the data were processed

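The authors trimmed the RRBS reads with Trim Galore and cutadapt, mapped them to mm10 (GRCm38) with Bismark, and used methylKit to drop CpGs with fewer than 10 reads, CpGs above the 99.9th coverage percentile, and CpGs lacking values from 3 mice per group. The submitters' processing notes name Trim Galore 0.4.0, cutadapt 1.8.1, Bismark 0.16.1 and methylKit 1.5.2, and the study's methods give other versions of Trim Galore and Bismark. The deposited table used here gives the percent of methylated reads per CpG, strand and mouse, without read numbers. The read-level test of the study could therefore not be run from it, and it does not give the depth behind a value. The sequencing reads themselves were not analysed here.

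Genes, exons and transcript starts were taken from GENCODE M21. Levels per mouse were computed for promoters (within 1 kb of a start) and bodies with at least 5 CpGs, at least 3 of them covered in a mouse, and at least 3 mice per group. A group-means model with all 3 groups in one fit was tested with limma 3.58.1 in R 4.3.3, with Benjamini-Hochberg adjustment over 21719 regions or 694379 CpGs. The fit was tested on simulated data. Mice count as replicates. Levels and figures were made in Python 3.11.15 (matplotlib 3.10.9, numpy 2.4.6, pandas 2.3.3). All 24 columns matched a sample (0 left over).

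The genes named were, per family, the promoter and the body with the smallest p for aging and for ENR, the highest and lowest promoters in young STD mice, the gene with the most CpGs, and, for aging and for ENR, the 3 CpGs with the smallest p among those with at least 5 mice per group. The members and lists were chosen with earlier results of these data known, and the CpG runs, printed windows, start sites and the 1 to 2 kb zone after the data had been examined. Replicate numbers are shared between groups of different animals. Same-numbered mice correlated with a mean r of -0.00163 (-0.0418 to 0.0417), and 4 of 24 mice correlated best with their own number, so mice were not paired. Alternatives were other minimums of mice and CpGs, a plain mean, a 2 kb promoter window, a log2 ratio scale, weights by covered CpGs, a replicate block, other size thresholds, medians, and leaving out each mouse, after which the CpG minimum of 3 mice per group was applied again. The labels give no batch.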

Additional observations from a re-analysis of the deposited data

Results flagged for a closer look

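In 117 groups of mice, for the families and the named regions, 10 had 1 mouse far from the rest by Dixon's criterion (8.55%). The nominal rate of about 1 in 20 is for independent, normally distributed groups. These groups share mice and CpGs, and some levels pile up at 0, so that rate does not apply to them. In families these were aged STD mouse 1 at Eph receptor promoters (5.44%, group median 7.48%), young STD mouse 1 at ephrin promoters (6.84%, median 3.06%) and aged STD mouse 5 at the bodies of all members (39.1%, median 44.6%). In single genes they were aged ENR mouse 3 at the Epha5 promoter (-1.68%, median 0.149%), aged ENR mouse 2 at the Epha7 body (44.9%, median 21.1%), aged STD mouse 6 at the Efnb3 body (21.1%, median 3.19%) and at the Efna1 body (3.06%, median 0), aged STD mouse 7 and aged ENR mouse 6 at the Slit2 body (33.9%, median 40.7%, and 48.6%, median 39.0%), and aged ENR mouse 4 at the Ntn1 promoter (1.60%, median 0). Aged STD mouse 5 also had the lowest plain mean over member CpGs. The causes were not tested.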

How the results depend on the processing

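Of 2372 recomputed values, 2333 stayed within the limits set for their kind, which were the same sign and side of the adjusted threshold for a tested difference, 1 SD between mice for a family difference or a level, and 1.5 times for a count. Another 34 passed those limits, and 5 tested differences changed sign. Within these wide limits, small differences shifted much, since 14 of 32 family differences changed sign and 23 of 28 differences of named regions moved by over 1.5 times without at least 1 mouse. No member promoter or body passed the adjusted threshold under any alternative. With at least 5 mice per group, the Efna3 promoter (ENR) turned to 1.28 points and the Slit1 body (ENR) to 2.95 points, and with a plain mean the Slit2 body (aging) turned to -4.21 points. Without a mouse, the Efna1 promoter (aging) ranged from -0.391 to 6.08 points and the Efna3 promoter (ENR) from -1.94 to 0.462 points. Family differences moved by more than 1 SD between mice with a plain mean in ephrin bodies (-5.36 for aging, 1.78 for ENR) and in plexin and neuropilin promoters (0.178 for ENR), with at least 5 mice in plexin and neuropilin (0.0723) and Slit promoters (0.198) for aging, and with a 2 kb window in Slit promoters (0.153 for ENR). Member CpGs past 25 points (356 for aging, 334 for ENR) numbered 84 and 75 with at least 5 mice per group, where 1299 CpGs remained, and 541 and 503 past 20 points.

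Leaving out 1 mouse gave 0 to 1 called CpGs per comparison. These were at Slit2 without young STD mouse 2, at Ntn1 without young STD mouse 5, at Robo1 without aged STD mouse 4 and at Epha4 without aged ENR mouse 4. With a replicate block, 5 CpGs passed for aging, 3 for ENR and 2 for aged ENR against young STD, in Nrp2, Robo1, Ephb1 and Sema3b, each with 3 to 5 mice per group, and no region passed. These were sized by the difference fitted with the block, which can lie far from that of the plain means. In plain means 4, 3 and 1 of them were over 25 points apart. The Nrp2 CpG was fitted at 33.3 points for aging and for aged ENR against young STD, and had means of 0, 8.33 and 0%. The Ephb1 CpGs, fitted at -100 points for aging, had means of 100 and 66.7%. The samples share only a number, and the causes of these shifts were not tested. Read numbers are unknown, and many single CpGs rest on few mice.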
